A study of Mus musculus with 21 samples.

Results

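Kidney-resident macrophages (KRM) were compared with CD11chi Mϕ, a monocyte-derived macrophage population, in stenotic kidneys of mice with renal artery stenosis (RAS). The comparison covered every gene of the deposited count table in 7 of the 21 libraries of the series, 3 of KRM and 4 of CD11chi Mϕ, and 13226 of 34236 gene symbols had enough reads to be tested. All mice were C57BL/6J males of 24 weeks with no transgene stated. RAS was made surgically with a cuff around the right renal artery, and Sham mice had the operation without it. In both groups cells were sorted on F4/80 and CD64 within 5 h. They were split by integrins, CD11chi Mϕ being high and KRM intermediate for both CD11b and CD11c. The RNA was amplified from very small inputs before sequencing. Nothing in the labels said that the libraries came from separate mice, so the p-values measure the spread between these libraries, which may be technical.

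KRM settle in the kidney early in life, renew themselves there and stay in close contact with tubules and capillaries, whereas CD11c-bearing macrophages arise from blood monocytes that enter the organ and differentiate. Tissue-resident macrophages are known for complement component C1q, for receptors that bind dying cells and for the chemokine receptor CX3CR1. Monocyte-derived cells that take on CD11c share genes with dendritic cells, the cells that carry antigen to lymph nodes and present it on MHC class II molecules to T cells.

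The 7 libraries held 6891177 to 10120529 estimated counts, and 15702 to 17811 genes had a count in them. Levels are CPM, counts set against the library total after TMM scaling, and are listed in the order KRM RAS 1, 2 and 3 and then CD11chi RAS 1, 2, 3 and 4. A positive log2 fold change means a higher level in KRM, and ± is its standard error. The library labelled KRM RAS 1 stood apart from the other KRM libraries. Its deposited count column did not correspond to its column in the authors' log2 table (correlation over shared genes 0.0902, against 0.9155 to 0.9657 for the other libraries). Its log2 CPM correlated with the mean of KRM from Sham kidneys at 0.963, where KRM RAS 2 and 3 reached 0.806 and 0.838. With the mean of CD11chi Mϕ from Sham kidneys the 3 correlated at 0.947, 0.856 and 0.875, so KRM RAS 2 and 3 were closer to that mean than to Sham KRM. That mean includes CD11chi Sham 3, where mitochondrial genes took 18.4% of counts. The summed level of distal nephron markers reached 2042 CPM among the CD11chi Sham libraries, and was 6748 and 5123 CPM in KRM RAS 2 and 3. The part of tubular RNA in these correlations was not tested. The column of the log2 table that the counts of KRM RAS 1 matched best was KRM Sham 3, at 0.5326. An exchange of libraries was not tested. The summed level of 14 T and NK cell markers was 572 CPM in it, 87.2 and 86.2 CPM in the other KRM libraries, and 405, 257, 156 and 173 CPM in CD11chi Mϕ. KRM RAS 2 and 3 resembled each other closely, with a chi-square per degree of freedom of 10.7, and so did CD11chi RAS 3 and 4 at 5.29. The other pairs within a group gave 103 to 146. Both pairs differed by more than counting error, which splits of 1 amplified sample could do too, so whether each pair is 1 sample cannot be told apart from these values. They were kept as labelled, as separate libraries.

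The genes of the sort were checked first, and since they define the gates they are no finding. Itgax, which encodes CD11c, was at 266, 150.2 and 191 CPM in KRM and 357, 473, 914 and 899.7 CPM in CD11chi Mϕ, and the 2 groups did not overlap (log2 fold change -1.70 ± 0.41, edgeR adjusted p = 0.0442). Emr1, which encodes F4/80, was at 1413, 917 and 1223 CPM in KRM and 745, 203, 126 and 116 CPM in CD11chi Mϕ. Fcgr1, which encodes CD64, was at 203, 129 and 139 CPM in KRM and 114, 47.1, 20.2 and 12.1 CPM in CD11chi Mϕ. Both were present in every library, and for both the lowest KRM library was above the highest CD11chi library. CD11chi RAS 3 and 4 carried the lowest Fcgr1 levels of the 7. Csf1r, the receptor on which macrophages depend for survival, was at 3099, 1605 and 2132 CPM in KRM and 2309, 557, 961 and 886 CPM in CD11chi Mϕ, with CD11chi RAS 1 inside the KRM range. Itgam, which encodes CD11b, was at 274, 229 and 285 CPM in KRM and 586, 255, 741 and 796 CPM in CD11chi Mϕ, and the groups overlapped (log2 fold change -1.17 ± 0.39, edgeR adjusted p = 0.0923).

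Which genes separated KRM from CD11chi Mϕ in the ischemic kidney was tested with edgeR's quasi-likelihood test. At an adjusted p under 0.05 and more than a 2-fold difference, 537 genes were higher in KRM (4.06% of those tested) and 633 were lower (4.79%). Without KRM RAS 1 the counts were 1780 higher (12.5% of 14257 tested) and 900 lower (6.31%). Both fits shared 521 higher genes, 97% of the smaller list and 29.3% of the larger. They shared 574 lower genes, 90.7% and 63.8%. Every one of the 633 lower genes had its KRM libraries all below its CD11chi libraries, against 14.2% of all tested genes. In the other direction, 397 of the 537 higher genes had them all above, against 12.2%. The lower genes were the more even among the KRM libraries. In 460 of them (72.7%) the 3 KRM levels lay within a 2-fold range, while this held for 143 of the higher genes (26.6%). The 4 CD11chi levels of the lower genes lay within a 2-fold range in 206 (32.5%). In 179 higher genes (33.3%) the KRM libraries were more than 10-fold apart, and in 140 (26.1%) KRM RAS 1 was below the highest CD11chi library.

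The counts depended on single libraries. Left out one at a time, the 7 libraries gave 0 to 1780 higher and 14 to 1003 lower genes. With edgeR no gene was called higher without KRM RAS 2, without KRM RAS 3, without CD11chi RAS 3 or without CD11chi RAS 4, where 2468 to 2972 genes had an unadjusted p under 0.05 in either direction. Without CD11chi RAS 1, 964 were higher and 1003 lower, and without CD11chi RAS 2, 23 and 174. With each of the 2 close pairs summed to 1 library, 0 genes passed adjustment with edgeR, and 1715 had an unadjusted p under 0.05. DESeq2 on all 7 libraries called 1611 higher and 1075 lower. Calls in the following paragraphs refer to the fit on all 7 libraries. Counts of list members stand against the shares of all tested genes, 4.06% higher and 4.79% lower, or 12.5% and 6.31% without KRM RAS 1. The value without KRM RAS 1 stands beside some leading genes, and beside some genes whose call is gained or lost without that library.

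**Figure D1:**
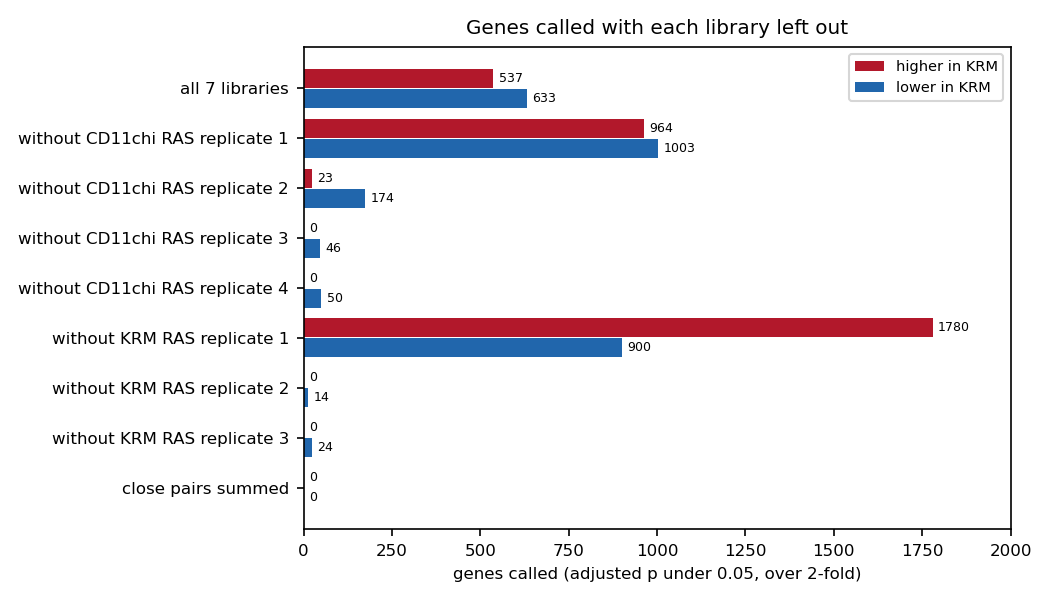
Bars give the number of genes called higher (red) and lower (blue) in KRM with all 7 libraries, with each library left out in turn, and with the 2 close pairs summed. The numbers run from 537 higher and 633 lower with all libraries to 0 and 0 with the pairs summed, and the largest higher count, 1780, came without KRM RAS 1.

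Lower in KRM, and called with all 7 libraries as well as with each library left out, were 12 genes: Ryr1, Siglecg, Retnla, Bcl11a, Gm14548, Fn1, Tiam1, Kcne3, Gda, Trem1, Arhgap26 and Gramd4 (a set chosen after the values were seen). Retnla, a secreted protein induced by interleukin 4 (chr16:48842551-48844461, + strand, GRCm38), was at 20.2, 42.97 and 41.2 CPM in KRM and 1215, 3179, 2742 and 2373 CPM in CD11chi Mϕ (log2 fold change -6.09 ± 0.54, edgeR adjusted p = 0.00533; -5.85 without KRM RAS 1). Fn1, the matrix protein fibronectin (chr1:71585520-71653200, − strand), was at 30.3, 46.2 and 48.3 CPM in KRM and 946, 508, 774 and 784 CPM in CD11chi Mϕ (log2 fold change -4.17 ± 0.35, edgeR adjusted p = 0.00533; -4.02 without KRM RAS 1). Trem1, an activating receptor of monocytes and neutrophils (chr17:48232768-48246924, + strand), was at 4.36, 4.25 and 3.65 CPM in KRM and 42.3, 39.9, 32.2 and 35.2 CPM in CD11chi Mϕ (log2 fold change -3.19 ± 0.24, edgeR adjusted p = 0.00533). In all 3 genes every CD11chi library was several-fold above every KRM library, and within the KRM libraries Trem1 varied least. Siglecg, an inhibitory lectin receptor, was at 1.58, 2.26 and 1.06 CPM in KRM and 53.2, 143, 116 and 140.5 CPM in CD11chi Mϕ (log2 fold change -6.09 ± 0.50, edgeR adjusted p = 0.00533; -6.10 without KRM RAS 1). Ryr1, a calcium release channel, was at 0.495, 0.995 and 0.673 CPM in KRM and 22.6, 69.9, 83.2 and 70.8 CPM in CD11chi Mϕ (log2 fold change -6.38 ± 0.59, edgeR adjusted p = 0.00533; -6.21 without KRM RAS 1). CD11chi RAS 1 was the lowest of its group for Siglecg and Ryr1, and still far above KRM. In a bulk library, fewer cells of a type and less RNA per cell cannot be told apart.

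The largest differences among genes with an average log2 CPM of at least 3 began with Saa3, an acute phase protein. It was at 0, 0 and 0.0961 CPM in KRM and 11.01, 56.9, 8.64 and 4.62 CPM in CD11chi Mϕ, which is 1 count in all 3 KRM libraries and 580 in the 4 CD11chi libraries, a ratio of 459 with a 95% interval from counting error alone of 82.0 to 18150. CD11chi RAS 2 held most of it. Ccl17, a chemokine that attracts CCR4-bearing T cells, was at 0.99, 5.25 and 1.15 CPM in KRM and 37.2, 821, 576 and 595 CPM in CD11chi Mϕ (log2 fold change -7.66 ± 1.27, edgeR adjusted p = 0.0234; -7.33 without KRM RAS 1). Gfra2, a receptor of the GDNF family, was at 0.495, 0.905 and 0.48 CPM in KRM and 12.4, 39.2, 58.2 and 62.7 CPM in CD11chi Mϕ (log2 fold change -6.06 ± 0.69, edgeR adjusted p = 0.00802). Ear2, an eosinophil-type ribonuclease with close copies in the genome among which reads may be split, was at 18.1, 14.02 and 12.3 CPM in KRM and 301, 618, 1060 and 1052 CPM in CD11chi Mϕ (log2 fold change -5.67 ± 0.56, edgeR adjusted p = 0.00593). The KRM and CD11chi libraries of all 4 genes did not overlap, and CD11chi RAS 1 was lowest of its group for Ccl17, Gfra2 and Ear2. Dhrs9, a retinol dehydrogenase, also belonged to these genes, at 0.396, 0 and 0.0961 CPM in KRM and 8.81, 7.38, 18.2 and 22.4 CPM in CD11chi Mϕ.

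**Figure D2:**
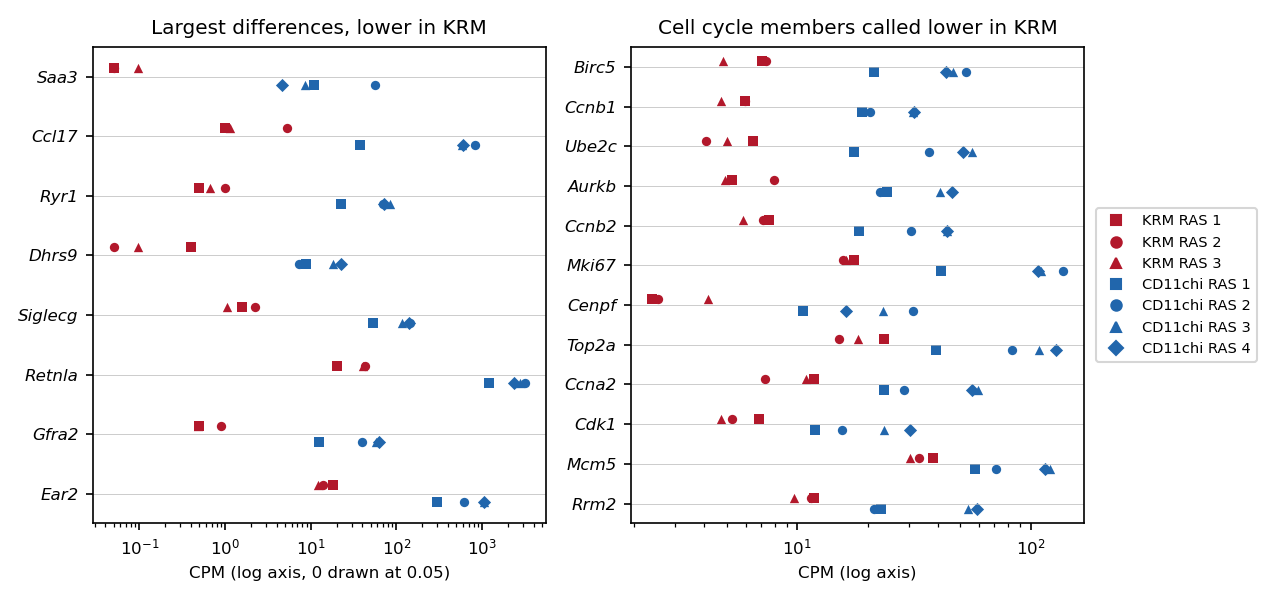
Left, levels in each library (CPM, log axis, 0 drawn at 0.05) of the 8 genes with the largest differences among those lower in KRM; right, the 12 cell cycle genes called lower. Red marks KRM and blue CD11chi Mϕ, and squares, circles, triangles and diamonds are libraries 1, 2, 3 and 4; in every gene shown all red marks lie below all blue ones.

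Dendritic cell genes were lower in KRM. Of 18 such genes 12 were called lower (66.7%, against 4.79% of all tested genes) and 0 higher. Their median log2 fold change was -3.40, where the median over all 20917 genes with a count was 0.15. Flt3, the receptor that drives dendritic cell development (chr5:147330741-147400489, − strand), was at 10.3, 4.7 and 3.08 CPM in KRM and 93.1, 129, 179 and 189 CPM in CD11chi Mϕ (log2 fold change -4.61 ± 0.51, edgeR adjusted p = 0.007; -5.27 without KRM RAS 1). Kmo, an enzyme of the kynurenine pathway, was at 13.5, 13.3 and 13.5 CPM in KRM and 88.9, 123, 216 and 255 CPM in CD11chi Mϕ (log2 fold change -3.67 ± 0.42, edgeR adjusted p = 0.00802). Btla, an inhibitory receptor, was at 4.65, 2.98 and 2.11 CPM in KRM and 35.9, 37.4, 54.8 and 70.2 CPM in CD11chi Mϕ (log2 fold change -3.92 ± 0.41, edgeR adjusted p = 0.00634). The 7 libraries fell into separate groups for each of them, and KRM were nearly even for Kmo. The transcription factors Irf4 (-3.59) and Zbtb46 (-3.22), the latter a marker of conventional dendritic cells, were called lower, and so were Cd209a (-5.35), Cd209d (-2.79), Clec10a (-3.89), Mgl2 (-1.93), Klrd1 (-3.67), Ccr7 (-4.08) and Ffar2. Ffar2, a receptor for short-chain fatty acids, had 1 count in KRM and 267 in CD11chi Mϕ, a ratio of 211 with a counting interval of 37.6 to 8373. Of the markers of cross-presenting dendritic cells, Xcr1 was at 13.1, 5.25 and 6.63 CPM in KRM and 27.7, 37.9, 6.77 and 8.54 CPM in CD11chi Mϕ. Clec9a was at 52.2, 23.5 and 21.4 CPM in KRM and 28.7, 44.5, 22.3 and 16.8 CPM in CD11chi Mϕ, and both overlapped. The summed level of the list was 772, 865 and 868 CPM in KRM and 2309, 4365, 9063 and 9354 CPM in CD11chi Mϕ. CD11chi RAS 3 and 4 thus carried the highest dendritic sum and the lowest Fcgr1, and the part of such cells in the result was not tested. Without KRM RAS 1 the number called lower was 13, with Batf3 and Itgae gained and Mgl2 lost (-1.93 and edgeR adjusted p = 0.0604). It was 14 without CD11chi RAS 1 and 7 without CD11chi RAS 2. It fell to 0 without KRM RAS 2, 2 without KRM RAS 3, and 4 and 5 without CD11chi RAS 3 and 4.

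Antigen presentation genes ranged from no call to large differences. The main MHC class II chains were abundant in both populations: H2-Ab1 was at 17010, 11870 and 13280 CPM in KRM and 14190, 25630, 31560 and 30870 CPM in CD11chi Mϕ (log2 fold change -0.86 ± 0.44, edgeR adjusted p = 0.227), with CD11chi RAS 1 inside the KRM range. Of the 18 genes of the list 5 were called lower (27.8%, against 4.79% of all tested genes) and 0 higher (median -0.90). H2-Oa and H2-Ob, the chains of H2-O that restrain peptide loading, were both among them. H2-Oa was at 25.1, 14.8 and 11.2 CPM in KRM and 88.3, 266, 369.7 and 367 CPM in CD11chi Mϕ (log2 fold change -3.99 ± 0.58, edgeR adjusted p = 0.019; -4.42 without KRM RAS 1). H2-Ob had a log2 fold change of -2.26 and Pdcd1lg2, a ligand of the PD-1 receptor, of -2.83. H2-DMb2, a chain of the peptide loading factor H2-M, was at 28.7, 46.3 and 41.2 CPM in KRM and 253, 578, 1381 and 1371 CPM in CD11chi Mϕ (log2 fold change -4.52 ± 0.67, edgeR adjusted p = 0.019), and H2-Eb2 had a log2 fold change of -3.37. H2-DMb2 and H2-Eb2 resemble neighbouring genes, and reads may be split among these. The costimulator Cd86 was at 307, 167 and 214 CPM in KRM and 174, 173, 155 and 158 CPM in CD11chi Mϕ, where CD11chi RAS 1 and 2 lay inside the KRM range. Of this list 9 genes were lower without CD11chi RAS 1, 6 without KRM RAS 1, 2 without CD11chi RAS 2 and 0 without any 1 of the remaining 4 libraries.

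Of 18 classical monocyte genes 6 were called lower in KRM (33.3%, against 4.79% of all tested genes) and 0 higher. Fn1 had the smallest p of them, and Lyz1 (-4.98), whose reads may be shared with its neighbour Lyz2, had the largest difference. S100a4, a calcium-binding protein of motile cells, was at 17.8, 12.8 and 8.27 CPM in KRM and 153, 678, 328 and 306 CPM in CD11chi Mϕ (log2 fold change -4.82 ± 0.60, edgeR adjusted p = 0.0117; -5.15 without KRM RAS 1). S100a6 (-3.22), the lectin Clec4e (-2.43) and Ms4a4c (-2.50) completed the set. Ly6c2, which encodes the surface marker of newly arrived monocytes, was at 62.2, 6.24 and 6.34 CPM in KRM and 111, 25.1, 6.66 and 7.23 CPM in CD11chi Mϕ (log2 fold change -0.59 ± 1.17, edgeR adjusted p = 0.766). It was highest in library 1 of each population, with overlap. Ccr2, the receptor that brings monocytes out of the marrow, was at 846, 523 and 705 CPM in KRM and 994, 468, 1008 and 967 CPM in CD11chi Mϕ and overlapped. Of 12 non-classical monocyte genes 1 was called lower, Pglyrp1 (-3.40), which is 8.3% against 4.79% of all tested genes. Without KRM RAS 1, 3 were called lower, with Emr4 and Eno3 gained. None was called without KRM RAS 2 or 3 or without CD11chi RAS 2, 3 or 4. Ace, Treml4 and Cd300e were highest in CD11chi RAS 1, at 212, 136 and 105 CPM. Between 1 and 7 of the classical genes were called lower when single libraries were left out. The count was 1 without KRM RAS 2 or KRM RAS 3, and 2 without CD11chi RAS 3 or CD11chi RAS 4. Of the neutrophil list Trem1 alone was called with all 7 libraries, while Ly6g and Elane had 0 counts in all 7 libraries, which leaves up to 3 counts per library possible.

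Genes of alternative activation, the state that interleukin 4 induces, included 5 of 16 called lower and 0 higher: Retnla, the chemokines Ccl17, Ccl22 and Ccl24, and the lectin Clec10a. These 5 are 31.2% of the list, where 4.79% of all tested genes were called lower. Ccl22, which binds the same receptor as Ccl17, was at 8.12, 18.6 and 14.5 CPM in KRM and 53.02, 275, 639.8 and 667 CPM in CD11chi Mϕ (log2 fold change -4.88 ± 0.90, edgeR adjusted p = 0.028; -4.66 without KRM RAS 1). Ccl24, an attractant of eosinophils, was at 1.09, 1.27 and 2.11 CPM in KRM and 36.8, 56.8, 8.53 and 8.42 CPM in CD11chi Mϕ (log2 fold change -4.19 ± 0.84, edgeR adjusted p = 0.0318). Ccl22 was highest in CD11chi RAS 3 and 4, and Ccl24 was highest in CD11chi RAS 1 and 2. Other genes of this state stood elsewhere. Mrc1, the mannose receptor, was at 383, 328 and 470.1 CPM in KRM and 313, 208, 349 and 344 CPM in CD11chi Mϕ. Il10 was at 0.891, 12.8 and 14.9 CPM in KRM and 1.83, 9.35, 4.67 and 3.32 CPM in CD11chi Mϕ. Stat6, the transcription factor of interleukin 4 signalling, was at 259, 190.1 and 218 CPM in KRM and 326, 177, 319 and 343 CPM in CD11chi Mϕ. Each of these overlapped. Without KRM RAS 2, without KRM RAS 3 or without CD11chi RAS 3, Retnla was the 1 gene of the list called, and without CD11chi RAS 4 Retnla and Clec10a were. Without CD11chi RAS 2 the called genes were Retnla, Clec10a and Cd163, which was not called with all 7.

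Proliferation genes were lower in KRM. Of 18 cell cycle genes 12 were called lower (66.7%, against 4.79% of all tested genes) and 0 higher, and their median was -1.96. Mki67, the proliferation marker Ki-67 (chr7:135689784-135716361, − strand), was at 17.5, 15.7 and 16.2 CPM in KRM and 41.5, 138, 111 and 107 CPM in CD11chi Mϕ (log2 fold change -2.58 ± 0.40, edgeR adjusted p = 0.0222; -2.66 without KRM RAS 1). Ube2c, which charges the ubiquitin ligase that ends mitosis, was at 6.44, 4.07 and 5.00 CPM in KRM and 17.5, 36.6, 56.3 and 51.5 CPM in CD11chi Mϕ (log2 fold change -2.96 ± 0.44, edgeR adjusted p = 0.0197). Ccnb2, cyclin B2, was at 7.53, 7.15 and 5.86 CPM in KRM and 18.4, 30.7, 43.8 and 43.6 CPM in CD11chi Mϕ (log2 fold change -2.31 ± 0.36, edgeR adjusted p = 0.0221). In all 3 the KRM libraries were close together, and CD11chi RAS 1 was the lowest of its group. The called genes acted mostly in the G2 phase and mitosis: Birc5 (-2.67), Cenpf (-2.74), Aurkb (-2.47), Top2a (-2.25), Ccnb1 (-2.20), Ccna2 (-2.07) and Cdk1 (-1.86). Among genes of DNA replication, Rrm2 (-1.84) and Mcm5 (-1.42) were called, whereas Mcm2 (-0.65), Mcm3 (-0.80), Mcm6 (-0.75), Pcna (-0.62) and Tyms (-0.42) were not. Of this list 12 genes were lower without KRM RAS 1, 13 without CD11chi RAS 1, 6 without CD11chi RAS 2 and 0 without any 1 of the other 4 libraries.

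The promoters of 3 of these genes are shown because they carry, in the same window, the elements known to restrict transcription to late cell cycle, the CCAAT box (CCAAT) and the cell cycle homology region (TTTGAA). Each window is the 250 bases before and the first 50 bases of the annotated RefSeq transcript (GRCm38.p6), 5′ to 3′ on the strand of the gene, with both elements, on either strand, in capitals. Where matches touch or overlap, the capitals run together.
Ube2c, chr2:164769679-164769978, + strand: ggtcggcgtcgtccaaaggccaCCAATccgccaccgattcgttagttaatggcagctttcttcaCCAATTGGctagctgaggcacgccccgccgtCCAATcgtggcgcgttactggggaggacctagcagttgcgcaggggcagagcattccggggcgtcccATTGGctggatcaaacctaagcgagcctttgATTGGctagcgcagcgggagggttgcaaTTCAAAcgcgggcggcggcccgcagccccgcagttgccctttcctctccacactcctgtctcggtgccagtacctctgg
Ccnb2, chr9:70421505-70421804, - strand: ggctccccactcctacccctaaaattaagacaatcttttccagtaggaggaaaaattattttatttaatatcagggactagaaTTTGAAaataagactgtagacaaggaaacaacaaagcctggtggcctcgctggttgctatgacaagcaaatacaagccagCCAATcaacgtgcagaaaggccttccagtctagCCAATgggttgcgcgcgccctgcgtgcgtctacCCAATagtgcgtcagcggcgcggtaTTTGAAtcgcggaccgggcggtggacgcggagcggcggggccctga
Mki67, chr7:135716330-135716629, - strand: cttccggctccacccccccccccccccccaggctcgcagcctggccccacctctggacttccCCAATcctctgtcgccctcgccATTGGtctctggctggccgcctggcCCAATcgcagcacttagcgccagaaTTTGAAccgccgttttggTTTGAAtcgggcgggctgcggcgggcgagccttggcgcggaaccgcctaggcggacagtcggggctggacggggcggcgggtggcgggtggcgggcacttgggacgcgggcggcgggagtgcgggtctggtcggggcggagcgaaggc
Of the 12 cell cycle genes called lower, 10 had a window. CCAAT occurred in 9 of the 10 (90%) and TTTGAA in 6 of the 10 (60%), while over the windows of all RefSeq promoters of this length 37.4% held CCAAT and 17.9% TTTGAA. A match is a description of the letters in the window and no evidence of binding.

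Other genes lower in KRM belonged to several functions. Cfp, properdin, which stabilises the complement convertase, was at 52.1, 85.5 and 88.3 CPM in KRM and 358, 906, 1240 and 1261 CPM in CD11chi Mϕ (log2 fold change -3.64 ± 0.51, edgeR adjusted p = 0.0166; -3.47 without KRM RAS 1). Adam8, a membrane protease, was at 15.9, 16.2 and 11.4 CPM in KRM and 142, 329.8, 417 and 451 CPM in CD11chi Mϕ (log2 fold change -4.52 ± 0.47, edgeR adjusted p = 0.00634). Nfkb1, a subunit of NF-κB, was at 59.7, 34.7 and 43.5 CPM in KRM and 153, 222, 219.8 and 226 CPM in CD11chi Mϕ (log2 fold change -2.15 ± 0.27, edgeR adjusted p = 0.0117). All 3 were even among KRM and lay wholly below CD11chi Mϕ. Among leukotriene and prostaglandin genes, 2 that act between arachidonic acid and leukotriene B4 were lower, the accessory protein Alox5ap (-1.79) and the last enzyme Lta4h (-1.92), while the first enzyme Alox5 (-1.20) did not pass. The prostacyclin receptor Ptgir was lower (-2.78). Of 18 genes for uptake of apoptotic cells, of which 16 passed the filter, 2 were higher, Gas6 and Itgav, and 4 were lower: Timd4 (-2.95), Cd300lf (-1.68), Anxa1 (-2.36) and Lrp1 (-1.46). Mmp12, macrophage elastase, was at 517, 269.9 and 389 CPM in KRM and 499, 1219, 1508 and 1391 CPM in CD11chi Mϕ, where KRM RAS 1 lay just above CD11chi RAS 1 (log2 fold change -1.55 ± 0.43, edgeR adjusted p = 0.0598). It was called lower once KRM RAS 1 was left out (-1.84 and edgeR adjusted p = 0.042). The protease Mmp19 (-4.20), the chemokine receptor Ccr1 (-3.26), the Fc receptor-like Fcrls (-2.74), the fatty acid carrier Fabp5 (-3.32) and Nrp2, a receptor of VEGF-C and semaphorins (-1.55), were also called lower, and Fabp5 lost its call once KRM RAS 1 was left out (-3.17 and edgeR adjusted p = 0.0522). Of the leukotriene, uptake and metalloproteinase genes, 0 were called lower without KRM RAS 2, and Adam8 alone was without KRM RAS 3, without CD11chi RAS 3 or without CD11chi RAS 4.

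PU.1 is a transcription factor of macrophages and dendritic cells whose core motif is AGGAAGT. This core occurred in 16.2% of 557 windows of genes called lower, in 8.46% of 508 windows of genes called higher, in 9.57% of windows of all genes tested and in 9.35% of all 32851 windows. The gene of PU.1 itself, written Sfpi1, was at 343, 171 and 191 CPM in KRM and 424, 466, 564 and 529 CPM in CD11chi Mϕ (log2 fold change -1.07 ± 0.30, edgeR adjusted p = 0.0605), with all KRM libraries below CD11chi Mϕ and no call. It was called lower once KRM RAS 1 was left out (-1.48 and edgeR adjusted p = 0.0106). The windows of Trem1, Retnla and Kmo are shown as examples with the core, on either strand, in capitals.
Trem1, chr17:48232489-48232788, + strand: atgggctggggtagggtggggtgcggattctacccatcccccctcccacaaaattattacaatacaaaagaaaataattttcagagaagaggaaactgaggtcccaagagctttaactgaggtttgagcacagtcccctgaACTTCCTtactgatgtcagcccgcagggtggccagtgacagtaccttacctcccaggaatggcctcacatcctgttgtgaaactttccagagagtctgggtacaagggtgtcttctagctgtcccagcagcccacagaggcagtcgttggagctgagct
Retnla, chr16:48842359-48842658, + strand: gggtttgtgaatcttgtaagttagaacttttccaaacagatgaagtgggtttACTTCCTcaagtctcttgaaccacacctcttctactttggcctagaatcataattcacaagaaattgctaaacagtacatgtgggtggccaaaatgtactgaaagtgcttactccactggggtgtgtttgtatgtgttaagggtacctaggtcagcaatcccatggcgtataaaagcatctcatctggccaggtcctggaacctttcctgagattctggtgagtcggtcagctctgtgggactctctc
Kmo, chr1:175631943-175632242, + strand: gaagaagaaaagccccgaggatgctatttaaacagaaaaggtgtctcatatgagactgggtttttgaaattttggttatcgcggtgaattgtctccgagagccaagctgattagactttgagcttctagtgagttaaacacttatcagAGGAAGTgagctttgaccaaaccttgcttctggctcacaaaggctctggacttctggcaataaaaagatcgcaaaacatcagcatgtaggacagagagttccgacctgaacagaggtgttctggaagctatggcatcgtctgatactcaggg
These shares count letters in windows of genes picked by their difference, and they were not tested.

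Resident macrophage genes lay mostly on the side of KRM. Of 20 such genes 2 were called higher, where 4.06% of all tested genes were, and 0 lower (median 1.53). In 6 of the 20 all KRM libraries were above all CD11chi libraries, where this held for 12.2% of all tested genes. Vcam1, an adhesion molecule (chr3:116109949-116129688, − strand), was at 185, 326 and 372 CPM in KRM and 63.8, 31.8, 67.7 and 38.7 CPM in CD11chi Mϕ (log2 fold change 2.55 ± 0.36, edgeR adjusted p = 0.0176; 2.76 without KRM RAS 1). Cd81, a tetraspanin (chr7:143052739-143067934, + strand), was at 1397, 1028 and 1182 CPM in KRM and 640.2, 313, 422 and 340.3 CPM in CD11chi Mϕ (log2 fold change 1.49 ± 0.31, edgeR adjusted p = 0.0347; 1.34 without KRM RAS 1). Cx3cr1, the fractalkine receptor, was at 974, 426 and 535 CPM in KRM and 560.3, 105, 85.5 and 92.6 CPM in CD11chi Mϕ (log2 fold change 1.61 ± 0.72, edgeR adjusted p = 0.175). For Vcam1 and Cd81 the groups did not overlap. For Cx3cr1, CD11chi RAS 1 was above KRM RAS 2 and 3 while the other 3 CD11chi libraries were several-fold below every KRM library. Tmem119, a marker of microglia, was at 221, 84.3 and 102 CPM in KRM and 87.5, 14.9, 5.61 and 1.54 CPM in CD11chi Mϕ, with CD11chi RAS 1 above KRM RAS 2 only. Cadm1, an adhesion molecule, was at 519, 253 and 262 CPM in KRM and 219, 84.8, 56.1 and 49.6 CPM in CD11chi Mϕ, with no overlap and no call (log2 fold change 1.75 ± 0.55, edgeR adjusted p = 0.0798). Epor, the erythropoietin receptor, was at 13.5, 6.24 and 5.77 CPM in KRM and 6.33, 0.656, 0.35 and 0 CPM in CD11chi Mϕ. Trem2, a lipid receptor, was at 64.7, 55.9 and 66.5 CPM in KRM and 52.5, 207, 22.4 and 19.7 CPM in CD11chi Mϕ, with its highest level in CD11chi RAS 2. Without CD11chi RAS 1, 10 of the 20 were called higher, 3 without KRM RAS 1, 1 without CD11chi RAS 2 and 0 without any 1 of the other 4.

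The complement list gave 2 of 16 higher (12.5%) and, with Cfp, 1 lower (6.2%), with a median of 1.43. Of all tested genes 4.06% were called higher and 4.79% lower, so the lower count was near that share. C1qa, a chain of the C1q recognition complex, was at 2001, 1373 and 1518 CPM in KRM and 967, 758, 269 and 178 CPM in CD11chi Mϕ (log2 fold change 1.59 ± 0.57, edgeR adjusted p = 0.11). C1qc was at 2958, 1697 and 1952 CPM in KRM and 1382, 901, 336 and 225 CPM in CD11chi Mϕ (log2 fold change 1.63 ± 0.61, edgeR adjusted p = 0.119). C3ar1, the receptor of the anaphylatoxin C3a, was at 586, 442 and 604 CPM in KRM and 281, 103, 65.1 and 53.4 CPM in CD11chi Mϕ (log2 fold change 2.12 ± 0.56, edgeR adjusted p = 0.0527). In all 3 the KRM libraries lay above the CD11chi libraries, with no call. C2, which is cleaved by C1s to build the classical convertase, was at 17.4, 14.7 and 12.6 CPM in KRM and 4.59, 2.62, 2.34 and 1.3 CPM in CD11chi Mϕ (log2 fold change 2.45 ± 0.45, edgeR adjusted p = 0.028; 2.29 without KRM RAS 1) and did not overlap. Cd59a, an inhibitor of the terminal complex, was called too, at 1.29, 39.6 and 33.8 CPM in KRM and 0.734, 2.46, 1.17 and 1.19 CPM in CD11chi Mϕ (log2 fold change 4.20 ± 0.98, edgeR adjusted p = 0.0417; 4.73 without KRM RAS 1). Only KRM RAS 2 and 3 were high and KRM RAS 1 was below CD11chi RAS 2. The Fc receptors Fcgr1, Fcgr4 and Fcgr3 had log2 fold changes of 1.70, 1.58 and 0.36 with no call. Without CD11chi RAS 1, 7 complement genes were called higher, 3 without KRM RAS 1, and 0 without any 1 of the other 5 libraries.

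In other genes all KRM libraries, KRM RAS 1 included, were above all CD11chi libraries. Ccl3, a chemokine for monocytes and T cells, was at 568, 552 and 651 CPM in KRM and 277, 203, 225 and 228 CPM in CD11chi Mϕ (log2 fold change 1.34 ± 0.21, edgeR adjusted p = 0.0228; 1.34 without KRM RAS 1). Ptgs1, cyclooxygenase 1, was at 163, 145 and 146 CPM in KRM and 74.8, 18.5, 31.3 and 21.8 CPM in CD11chi Mϕ (log2 fold change 2.05 ± 0.47, edgeR adjusted p = 0.0402; 1.96 without KRM RAS 1). Itgav, an integrin chain used in binding apoptotic cells and in activating TGF-β, was at 147, 185 and 199.6 CPM in KRM and 107, 44.5, 46.7 and 39.01 CPM in CD11chi Mϕ (log2 fold change 1.58 ± 0.37, edgeR adjusted p = 0.0421; 1.67 without KRM RAS 1). None of the 3 overlapped, and CD11chi RAS 1 was the highest of its group for each. Gas6, the bridging ligand of the receptors Mertk and Axl, was at 84.9, 176 and 165 CPM in KRM and 59.1, 24.8, 13.2 and 12.4 CPM in CD11chi Mϕ (log2 fold change 2.38 ± 0.57, edgeR adjusted p = 0.0427). Mertk was at 50.8, 34.6 and 44.2 CPM in KRM and 24.5, 22.8, 7.01 and 9.61 CPM in CD11chi Mϕ (log2 fold change 1.44 ± 0.45, edgeR adjusted p = 0.0773). Gas6 was called and Mertk was not, and neither overlapped. Ifi44, an interferon-stimulated gene, was at 22.5, 26.4 and 29.5 CPM in KRM and 13.1, 2.46, 6.19 and 6.64 CPM in CD11chi Mϕ (log2 fold change 1.87 ± 0.48, edgeR adjusted p = 0.0495). These calls were lost without KRM RAS 2, without KRM RAS 3, without CD11chi RAS 3 and without CD11chi RAS 4, the settings in which 0 genes were called higher, and without CD11chi RAS 2 Ccl3 alone of them was called.

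Of the 143 genes called higher whose KRM libraries lay within a 2-fold range, those also called without KRM RAS 1, with no overlap and with a mean log2 CPM of 3 or more, were ranked by their difference, and the first 12 were named after their values were seen. Oplah, which opens 5-oxoproline in the glutathione cycle, was at 28.2, 52.3 and 40.2 CPM in KRM and 10.6, 1.48, 1.05 and 1.42 CPM in CD11chi Mϕ (log2 fold change 3.44 ± 0.80, edgeR adjusted p = 0.0417; 3.60 without KRM RAS 1). Slc22a17, a receptor of lipocalin 2, was at 19.5, 26.2 and 27.97 CPM in KRM and 6.97, 0.328, 1.28 and 0.83 CPM in CD11chi Mϕ (log2 fold change 3.34 ± 0.86, edgeR adjusted p = 0.0485; 3.44 without KRM RAS 1). Rhbdf1, an inactive rhomboid protein, was at 36.5, 45.1 and 48.05 CPM in KRM and 14.8, 4.1, 2.45 and 2.13 CPM in CD11chi Mϕ (log2 fold change 2.87 ± 0.65, edgeR adjusted p = 0.0403; 2.94 without KRM RAS 1). In these 3 genes every KRM library was above every CD11chi library. The others were C2, described above, Col14a1 (2.67), a fibril-associated collagen, Anks6 (2.47), a protein of the primary cilium, Ptprm (2.42), a receptor phosphatase, Alpl (2.35), alkaline phosphatase, Sult1d1 (2.29), a sulfotransferase, Enpp2 (2.29), autotaxin, Fads3 (2.27), of the fatty acid desaturase family, and Myh10 (2.21), a non-muscle myosin. In the 3 CD11chi Sham libraries the highest level of Alpl was 479 CPM against a median of 7.64 CPM, that of Enpp2 366 against 7.89 CPM, that of Sult1d1 288 against 14.8 CPM and that of Fads3 103 against 7.89 CPM. The proximal tubule marker Slc34a1, a phosphate transporter, was at most 5342 CPM there against a median of 93.1 CPM. The part of tubular RNA in these 4 genes was not tested.

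**Figure D3:**
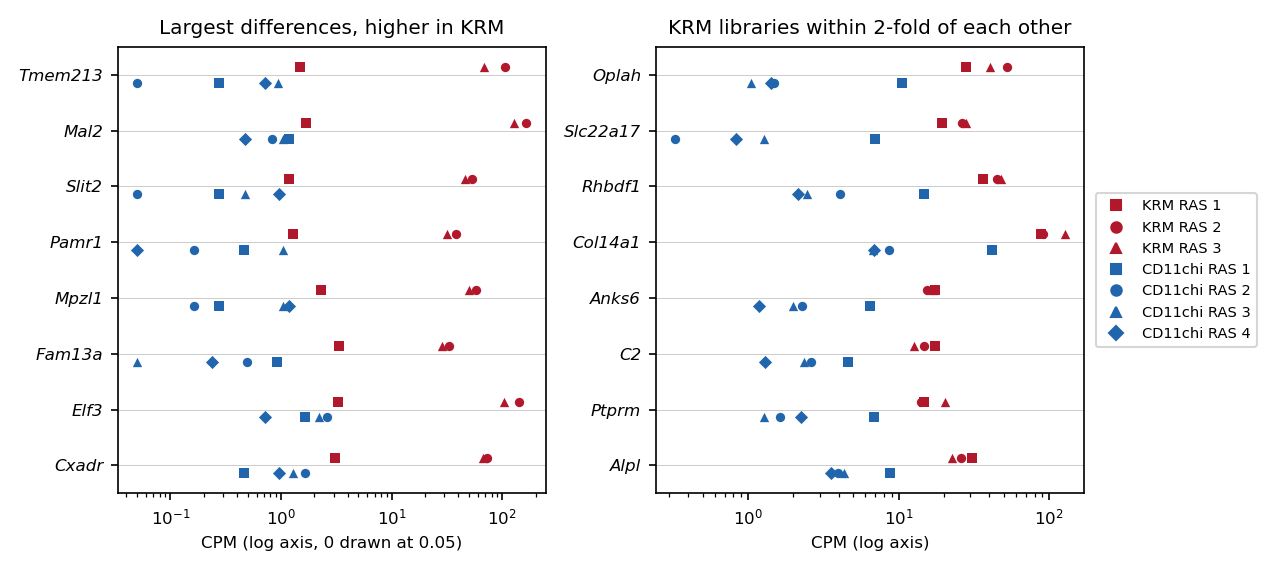
Left, levels in each library (CPM, log axis, 0 drawn at 0.05) of the 8 genes with the largest differences among those higher in KRM; right, 8 genes called higher whose KRM libraries lie within a 2-fold range. Red marks KRM and blue CD11chi Mϕ, with squares, circles, triangles and diamonds for libraries 1 to 4; on the left the red square, KRM RAS 1, lies near the blue marks and KRM RAS 2 and 3 far above them, while on the right all red marks lie together.

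The largest differences among the genes higher in KRM lay in genes that were high in KRM RAS 2 and 3 only. Mal2, a protein of apical transport in epithelia, was at 1.68, 166 and 128 CPM in KRM and 1.19, 0.82, 1.05 and 0.474 CPM in CD11chi Mϕ (log2 fold change 6.76 ± 1.26, edgeR adjusted p = 0.0283; 7.30 without KRM RAS 1). Elf3, an epithelial transcription factor, was at 3.27, 142 and 103 CPM in KRM and 1.65, 2.62, 2.22 and 0.712 CPM in CD11chi Mϕ (log2 fold change 5.54 ± 1.07, edgeR adjusted p = 0.0299; 6.08 without KRM RAS 1). Slit2, a guidance ligand, was at 1.19, 53.4 and 46.4 CPM in KRM and 0.275, 0, 0.467 and 0.949 CPM in CD11chi Mϕ (log2 fold change 6.24 ± 1.25, edgeR adjusted p = 0.0318; 6.76 without KRM RAS 1). In each, KRM RAS 1 was only just above the highest CD11chi library. Ptges, prostaglandin E synthase, of the leukotriene and prostaglandin list, was at 0, 121 and 95.9 CPM in KRM and 0.55, 0.82, 1.52 and 1.66 CPM in CD11chi Mϕ (log2 fold change 5.98 ± 1.53, edgeR adjusted p = 0.0484; 6.53 without KRM RAS 1). Its level in KRM RAS 1 was below every CD11chi library. Tmem213 (6.86), Pamr1 (5.75), Mpzl1 (5.74), Fam13a (5.64) and Cxadr (5.49), an adhesion protein of tight junctions, were high in KRM RAS 2 and 3 in the same way as Mal2.

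Markers of the distal nephron and collecting duct moved with these genes. The summed level of 18 such markers was 157 CPM in KRM RAS 1, 6748 and 5123 CPM in KRM RAS 2 and 3, and 106, 63.8, 196 and 240 CPM in CD11chi Mϕ. Of the 18 markers 15 passed the filter, and 8 were called higher (53.3%, against 4.06% of all tested genes). Without KRM RAS 1, 17 passed and all 17 were called, against 12.5% of all genes tested then. The filter asks for counts in fewer libraries when a group is smaller. Markers high in KRM RAS 2 and 3 alone can then enter the test. Umod, uromodulin of the thick ascending limb, was at 55.1, 2029 and 1522 CPM in KRM and 27.1, 0.328, 56.1 and 98.1 CPM in CD11chi Mϕ (log2 fold change 4.73 ± 1.47, edgeR adjusted p = 0.078; 5.25 without KRM RAS 1). Aqp2, the water channel of principal cells, was at 0.297, 616 and 437 CPM in KRM and 0.275, 0.656, 6.66 and 3.56 CPM in CD11chi Mϕ (log2 fold change 6.97 ± 1.83, edgeR adjusted p = 0.0512; 7.51 without KRM RAS 1). Slc12a3, the thiazide-sensitive cotransporter, was at 13.7, 162 and 152 CPM in KRM and 10.1, 0.492, 4.32 and 6.05 CPM in CD11chi Mϕ (log2 fold change 4.36 ± 0.97, edgeR adjusted p = 0.0388; 4.84 without KRM RAS 1). All 3 were high in KRM RAS 2 and 3, and only Slc12a3 did not overlap. Slc12a1, of the thick ascending limb, was at 21.7, 735 and 548 CPM in KRM and 10.6, 0.164, 22.9 and 32.5 CPM in CD11chi Mϕ. Slc4a1, of intercalated cells, was at 1.58, 110.5 and 102 CPM in KRM and 1.01, 0, 5.37 and 2.85 CPM in CD11chi Mϕ. Cdh1, E-cadherin, was at 8.71, 327 and 257 CPM in KRM and 18.5, 14.6, 32.7 and 34.5 CPM in CD11chi Mϕ, and KRM RAS 2 and 3 were again the high ones. Umod, Aqp2, Slc12a1, Slc4a1 and Cdh1 were called once KRM RAS 1 was left out. Kcnj16, a potassium channel subunit of distal tubule, was at 18.9, 129.7 and 116 CPM in KRM and 8.71, 4.76, 3.74 and 4.62 CPM in CD11chi Mϕ (log2 fold change 4.01 ± 0.64, edgeR adjusted p = 0.0228). The called counts were 3 without CD11chi RAS 1 and 0 without any 1 of KRM RAS 2 and 3 and CD11chi RAS 2, 3 and 4.

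The window of Kcnj16 is shown because it holds GTTAATNAT, a core of the site of HNF1, an epithelial transcription factor of the tubule, in capitals on either strand.
Kcnj16, chr11:110967783-110968082, + strand: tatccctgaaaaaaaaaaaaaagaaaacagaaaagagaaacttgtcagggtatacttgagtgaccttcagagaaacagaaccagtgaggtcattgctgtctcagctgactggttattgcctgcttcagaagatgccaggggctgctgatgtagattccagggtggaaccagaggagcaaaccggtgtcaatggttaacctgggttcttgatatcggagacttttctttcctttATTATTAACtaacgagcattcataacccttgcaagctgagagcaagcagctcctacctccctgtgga
This core was in 2.36% of the windows of genes called higher (12 of 508) and in 0.18% of those called lower (1 of 557). It was in 0.448% of those of genes tested and in 0.801% of all windows. A match is no evidence of binding, and these shares were not tested.

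Proximal tubule markers were spread differently. Their summed level was 2309, 1400 and 1331 CPM in KRM and 1185, 1471, 405 and 347 CPM in CD11chi Mϕ, and 4 of 16 were called higher: Aqp1 (3.73), Slc5a2 (2.09), Slc5a12 (2.15) and Gatm (1.26). These 4 are 25% of the list, where 4.06% of all tested genes were called higher. Slc5a2, the glucose transporter of the early proximal tubule, was at 57.7, 32.8 and 37.1 CPM in KRM and 14.4, 10.99, 9.81 and 4.86 CPM in CD11chi Mϕ (log2 fold change 2.09 ± 0.38, edgeR adjusted p = 0.0276), highest in KRM RAS 1. Aqp1, the water channel of proximal tubule, was at 11.6, 101 and 82.8 CPM in KRM and 5.5, 6.56, 2.92 and 4.74 CPM in CD11chi Mϕ (log2 fold change 3.73 ± 0.67, edgeR adjusted p = 0.0265), highest in KRM RAS 2 and 3. Podocyte markers were near 0, with Nphs1 at 0 in 5 of the 7 libraries. Mitochondrial genes took 1.15%, 4.51% and 4.86% of counts in KRM and 1.03%, 5.02%, 1.80% and 1.87% in CD11chi Mϕ. The count was again 4 without KRM RAS 1 and without CD11chi RAS 1, and 0 without any 1 of the others. The part of tubular RNA in the higher calls was not tested.

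**Figure D4:**
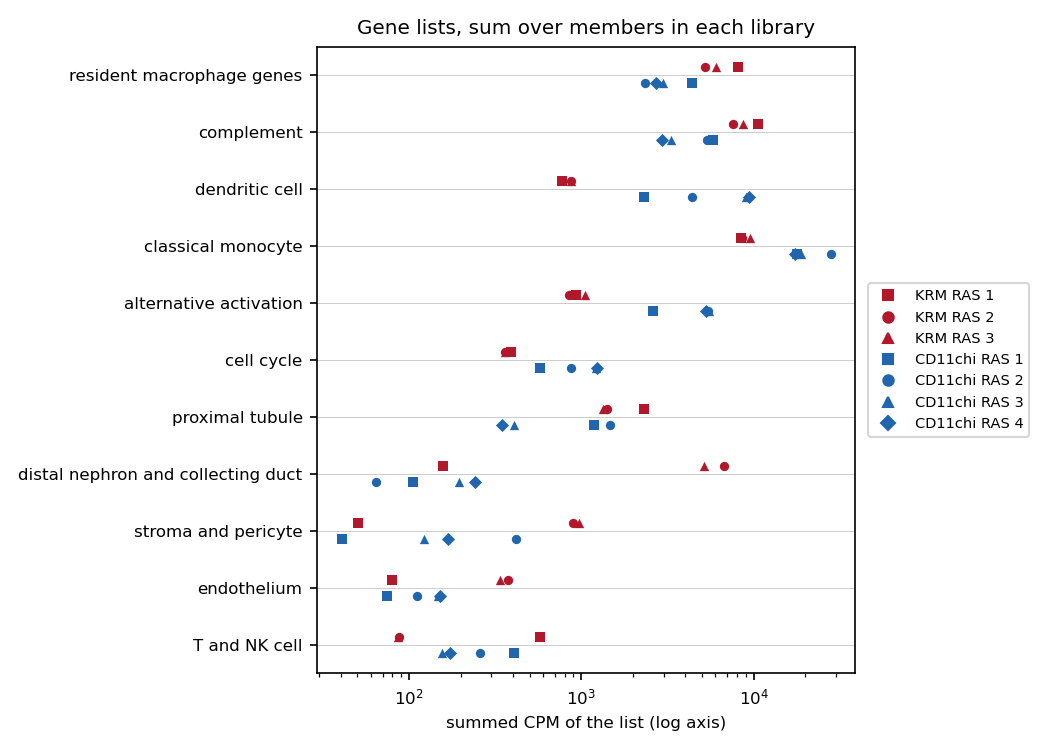
Summed level of each of 11 marker lists (CPM, log axis) in the 7 libraries, red for KRM and blue for CD11chi Mϕ, with squares, circles, triangles and diamonds for libraries 1 to 4. The distal nephron sum separates KRM RAS 2 and 3 (6748 and 5123 CPM) from the other 5 libraries (63.8 to 240 CPM), and the dendritic cell sum separates all 3 KRM libraries from CD11chi Mϕ.

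Angiogenic and growth factors were partly of this second kind. Of 28 genes, of which 25 passed the filter, 2 were called higher, Tgfb3 and Cyr61, and 1 lower, Nrp2 (median 1.84). These are 8.0% and 4.0% of those tested, where 4.06% of all tested genes were called higher and 4.79% lower. Without KRM RAS 1 the counts were 12 and 1 of 26 tested, where the shares of all tested genes were 12.5% and 6.31%. Tgfb3 was at 10.1, 26.96 and 33.5 CPM in KRM and 4.86, 1.8, 2.22 and 2.37 CPM in CD11chi Mϕ (log2 fold change 3.05 ± 0.52, edgeR adjusted p = 0.0246; 3.37 without KRM RAS 1). Cyr61, a matricellular protein, was at 89.6, 607 and 550.5 CPM in KRM and 34.1, 27.1, 29.8 and 21.5 CPM in CD11chi Mϕ (log2 fold change 3.89 ± 0.59, edgeR adjusted p = 0.0205; 4.33 without KRM RAS 1). All 3 KRM libraries were above CD11chi Mϕ for both, KRM RAS 1 the least. Spp1, osteopontin, was at 150.4, 7786 and 5489 CPM in KRM and 306, 1461, 381 and 199 CPM in CD11chi Mϕ (log2 fold change 2.94 ± 1.13, edgeR adjusted p = 0.129; 3.48 without KRM RAS 1). Angpt1, the ligand of the endothelial receptor Tie2, was at 0.396, 6.15 and 8.75 CPM in KRM and 0.0917, 0.82, 0.35 and 1.42 CPM in CD11chi Mϕ (log2 fold change 2.93 ± 1.09, edgeR adjusted p = 0.119; 3.45 without KRM RAS 1). Their low level in KRM RAS 1 recurred elsewhere in the list. Lcn2, lipocalin 2, was at 1.68, 145 and 105 CPM in KRM and 6.79, 4.43, 3.15 and 1.19 CPM in CD11chi Mϕ. Ctgf was at 0.495, 125 and 135 CPM in KRM and 0.826, 13.1, 7.59 and 10.1 CPM in CD11chi Mϕ. Tnc, tenascin C, was at 0, 30.03 and 30.8 CPM in KRM and 0, 3.61, 3.85 and 2.49 CPM in CD11chi Mϕ. These 5 were high in KRM RAS 2 and 3 and low or at 0 in KRM RAS 1, and none passed the threshold with all 7 libraries, while each did without KRM RAS 1. Vegfa, the main endothelial growth factor, was at 11.4, 87.02 and 86.02 CPM in KRM and 13.9, 48.4, 118 and 114 CPM in CD11chi Mϕ (log2 fold change -0.26 ± 0.82, edgeR adjusted p = 0.859). Igf1 was at 50.9, 45.95 and 48.9 CPM in KRM and 35.96, 70.7, 6.54 and 5.81 CPM in CD11chi Mϕ (log2 fold change 0.72 ± 0.79, edgeR adjusted p = 0.575), and both overlapped. Vegfb was at 8.81, 22.9 and 18.4 CPM in KRM and 5.87, 15.3, 9.23 and 6.76 CPM in CD11chi Mϕ (log2 fold change 0.86 ± 0.45, edgeR adjusted p = 0.242), with overlap. Agtr2 had no counts in any of the 7. Timp3, an inhibitor of metalloproteinases, was called higher (3.17; 3.58 without KRM RAS 1). Mmp13, a collagenase, was at 408, 297 and 389 CPM in KRM and 137, 6.4, 10.5 and 9.13 CPM in CD11chi Mϕ (log2 fold change 3.16 ± 1.06, edgeR adjusted p = 0.0931), higher in every KRM library with no call. The count of higher angiogenic genes was 4 without CD11chi RAS 1 and 0 without any 1 of KRM RAS 2 and 3 and CD11chi RAS 2, 3 and 4.

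Markers of vessels and stroma were highest in the same 2 KRM libraries. The endothelial sum was 79.8, 375 and 339 CPM in KRM and 74.3, 111, 147 and 152 CPM in CD11chi Mϕ, and the stromal and pericyte sum was 50.3, 898 and 963 CPM against 40.5, 416, 122 and 168 CPM. Pdgfrb, of pericytes, was at 0.198, 35.01 and 42.3 CPM in KRM and 1.47, 2.3, 3.97 and 2.73 CPM in CD11chi Mϕ. Col1a1, a collagen chain, was at 6.73, 79.2 and 98.03 CPM in KRM and 3.21, 27.2, 13.7 and 17.6 CPM in CD11chi Mϕ. Pecam1, of endothelium, was at 10.5, 31.3 and 30.4 CPM in KRM and 13.6, 6.73, 15.4 and 15.7 CPM in CD11chi Mϕ. KRM RAS 2 and 3 were highest for all 3, and each was called once KRM RAS 1 was left out. Of 16 stromal markers edgeR called 0, with 6 at an unadjusted p under 0.05 and 3 called by DESeq2, and 9 were called higher without KRM RAS 1. Of 16 endothelial markers 1 was called, Vwf, which was lower in KRM (-2.69), and without KRM RAS 1 there were 5 higher and 1 lower. Of all tested genes 4.79% were called lower with all 7 libraries, and 12.5% higher and 6.31% lower without KRM RAS 1. The part of RNA from these cells in the angiogenic genes was not tested.

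Several lists had few or no calls. Of 23 inflammatory mediators only Ccl3 and Nfkb1 were called, and without KRM RAS 1 also Ccl5 and Irf5, both lower. With all 7 libraries this is 4.3% higher and 4.3% lower, near the 4.06% and 4.79% of all tested genes. Il1b was at 1141, 2871 and 3384 CPM in KRM and 1094, 4530, 7415 and 7698 CPM in CD11chi Mϕ (log2 fold change -1.07 ± 0.68, edgeR adjusted p = 0.326). Tnf was at 53.5, 114 and 141 CPM in KRM and 48.8, 149, 106 and 118 CPM in CD11chi Mϕ (log2 fold change -0.03 ± 0.43, edgeR adjusted p = 0.972). Il6 was at 1.19, 15.3 and 18.6 CPM in KRM and 7.71, 30.2, 41.2 and 43.99 CPM in CD11chi Mϕ (log2 fold change -1.38 ± 0.86, edgeR adjusted p = 0.314). All 3 overlapped, with library 1 of each population low. Ccl8 was at 104, 146 and 154 CPM in KRM and 43.4, 62.4, 9.58 and 4.98 CPM in CD11chi Mϕ (log2 fold change 2.17 ± 0.76, edgeR adjusted p = 0.104), with no overlap. Of 20 interferon-stimulated genes 1 was called. Of 12 iron and heme genes edgeR called 0, with 5 at an unadjusted p under 0.05 and 4 called by DESeq2. Of 18 immediate early genes, which tissue digestion is known to induce, edgeR called 0, with 2 at an unadjusted p under 0.05 and 3 called by DESeq2. In the iron list Slc40a1, the iron exporter ferroportin, was at 57.8, 62.7 and 58.9 CPM in KRM and 29.3, 10.8, 2.34 and 4.27 CPM in CD11chi Mϕ (log2 fold change 2.35 ± 0.73, edgeR adjusted p = 0.0781), higher in every KRM library. Egr1 was at 1573, 2269 and 2393 CPM in KRM and 1310, 813, 825 and 799 CPM in CD11chi Mϕ (log2 fold change 1.16 ± 0.30, edgeR adjusted p = 0.0517), also higher in every KRM library, and was called once KRM RAS 1 was left out (1.29 and edgeR adjusted p = 0.0334). In the lipid list Apoe was at 10220, 7177 and 7966 CPM in KRM and 5550, 9249, 503 and 269 CPM in CD11chi Mϕ, low in CD11chi RAS 3 and 4 only. Saa3 and Timd4 were called of the 18 serous cavity macrophage genes, while Alox15, Gata6 and Prg4 were at most 4.55 CPM in KRM. Of 14 T and NK cell markers edgeR called 0, with 1 at an unadjusted p under 0.05 and 1 called by DESeq2, and 5 were lower without KRM RAS 1, which carried the highest sum. Of B and plasma cell markers 1 was called, Fcrla (-2.48).

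The same contrast in Sham kidneys, with 4 KRM and 3 CD11chi libraries that are separate from the RAS libraries, gave 94 higher (0.759% of 12380 tested) and 472 lower genes (3.81%). Dendritic cell genes had a median log2 fold change of -3.19 in Sham and -3.40 in RAS, cell cycle genes -2.39 and -1.96, and resident macrophage genes 1.34 and 1.50. Distal nephron markers stood at -3.07 in Sham and 4.72 in RAS over the 9 tested in both. The Sham levels bear on that value: the distal nephron sum ran from 16.1 to 247 CPM in KRM and from 13.7 to 2042 CPM in CD11chi Mϕ, and mitochondrial genes took 18.4% of counts in CD11chi Sham 3. Without that library, which was left out after its values were seen, the distal nephron median in Sham was 0.27 over 9 tested, and 231 genes were higher and 795 lower of 12673 tested. The medians of the dendritic, cell cycle and resident macrophage genes were then -3.42, -2.57 and 1.15. Retnla was at 7.68 to 8.34 CPM in Sham KRM and 654 to 2375 CPM in Sham CD11chi Mϕ, and Vcam1 at 257 to 361 and 28.4 to 204 CPM.

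**Figure D5:**
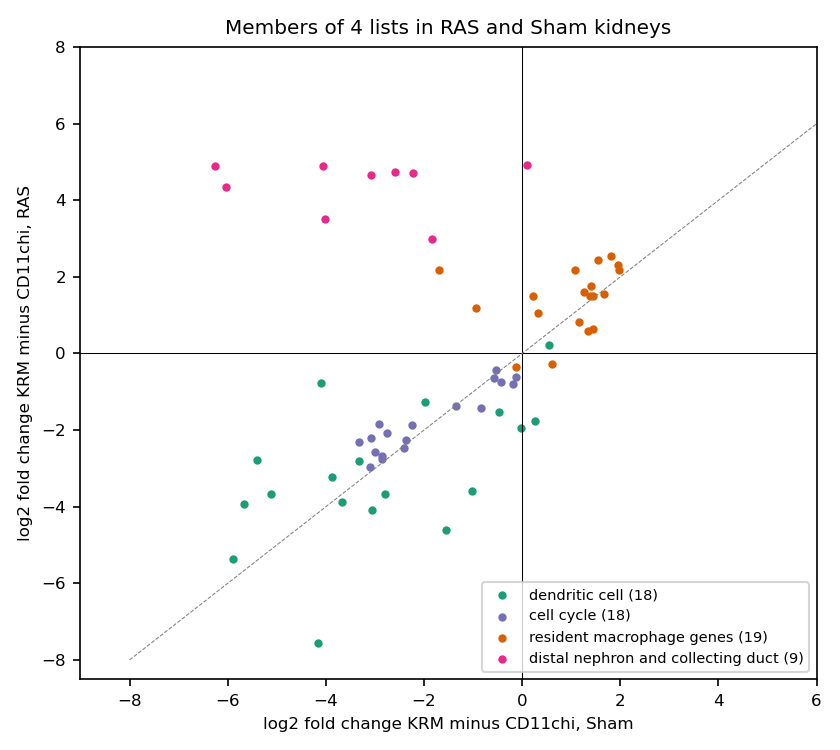
Each point is a gene of 4 lists, with its log2 fold change of KRM over CD11chi Mϕ in Sham kidneys on the horizontal axis and in RAS kidneys on the vertical axis. The dashed line marks equal values. Cell cycle genes and most dendritic cell genes lie in the lower left and most resident macrophage genes in the upper right, while 8 of the 9 distal nephron markers lie in the upper left, a position that rests on CD11chi Sham 3, without which their Sham median is 0.27.

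Whether the contrast itself changed with RAS was tested as an interaction over all 14 libraries. With edgeR 0 of 14137 genes passed in either direction, 3000 had an unadjusted p under 0.05, and DESeq2 called 1094 and 143. Without KRM RAS 1, 970 genes had a more positive contrast in RAS (6.54% of 14828) and 120 a more negative one (0.809%). The most positive were Tmem213, Slc12a3, Mal2, Elf3 and Kng2, with interactions from 9.57 to 12.93 on the log2 scale. These sizes rest on CD11chi Sham 3, where Slc12a3 was at 220.1 CPM against 0.407 and 1.39 CPM in CD11chi Sham 1 and 2, and Tmem213 at 37.05 CPM against 0.102 and 0.107 CPM. Without CD11chi Sham 3 as well, the 5 interactions ran from 2.69 to 6.67 with edgeR adjusted p from 0.0501 to 0.672, and 344 genes were more positive and 76 more negative in all. The most negative were Adam23 (-4.09), a membrane adhesion protein, Flt3 (-3.66), Cd244 (-2.81), a receptor of the SLAM family, Irf4 (-2.68) and Itgb7 (-2.67), an integrin chain of gut-homing cells (all named after their values were seen). Without CD11chi Sham 3 as well, these 5 ran from -3.81 to -2.27, and Irf4 no longer passed (edgeR adjusted p = 0.0645). Flt3 was at 29.8 to 41.2 CPM in Sham KRM and 42.9 to 137 CPM in Sham CD11chi Mϕ, against 3.08 to 10.3 and 93.1 to 189 CPM in RAS. Irf4 was at 11.4 to 14.1 and 12.96 to 37.3 CPM in Sham, against 5.97 to 10.1 and 43.1 to 148 CPM in RAS. Leaving out CD11chi RAS 1 gave 35 and 23 genes and leaving out KRM Sham 3 gave 1 and 0, and leaving out any other single library gave 0.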

How the data were processed

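The authors deposited estimated counts per gene, made with the OSA aligner on mm10 and Ensembl gene models, with 9.7% to 11.608% of values not whole in the 7 libraries. They also deposited a table on the log2 scale, made from quantile-normalized TPM. Aligner settings and the strand of counting are not given in the sources used here. Here the 3730 of 37620 lines sharing a symbol were summed, leaving 34236 symbols (25 of them turned into dates), and counts were rounded. No column was left without a sample.

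Genes were filtered with filterByExpr (minimum count 10, minimum total 15), scaled by TMM and tested with edgeR 4.0.16 in R 4.3.3 by the two-sided quasi-likelihood F test with Benjamini-Hochberg adjustment over all genes tested. A gene was called at an adjusted p under 0.05 and more than 2-fold. The comparison was made with and without KRM RAS 1, and the interaction with Sham over 14 libraries. Scaling by median of ratios or total counts, other filters, limma 3.58.1 on the deposited log2 values, DESeq2 1.42.0, 1 fit over 6 groups, the replicate number as a block, lines kept apart and each library left out were alternatives. Summing the close pairs was chosen after seeing the data. The method was tested on simulated data.

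Members and lists were chosen with earlier results of these data known, so they support nothing on their own. The 29 lists held 475 entries, of which 474 were found. Named genes were, in each direction, the 8 genes that differed most, given adjusted p-values under 0.05 with and without KRM RAS 1, no overlap and a mean log2 CPM of 3 or more, then up to 4 members of each list with the smallest p, the gate genes and genes named in the study, with other list members given as values. At the depths above, 0 counts leave up to 3 counts possible, and intervals and floors cover counting error only, since amplified reads are not independent molecules. Gene positions are from GENCODE on GRCm38, and promoter windows and motifs were read from RefSeq GRCm38.p6, for which 9232 of the 13226 tested genes matched; chromosome 18 was left out. The authors' columns of comparisons were not used here. Values of some single genes are not reported here. Reads of near-identical genes may be split among them.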

Additional observations from a re-analysis of the deposited data

Results flagged for a closer look

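Of 169 named genes, 18 had a CD11chi RAS library that lay apart from the other 3 of its group by Dixon's criterion, which chance gives in about 1 in 20 groups of independent values. Replicate 1 was apart in 12 and replicate 2 in 6, and replicates 3 and 4 in 0. Replicates 3 and 4 are a close pair, so neither can readily lie apart, and their values may not be independent. The 18 genes therefore cannot be judged by the rate of 1 in 20. In replicate 1 the levels were highest of the group for Emr1 (745 CPM), Emr4 (238 CPM), Egr1 (1310 CPM), Jun (2079 CPM), Klrb1c (22.4 CPM), Ltf (8.62 CPM), Cx3cr1 (560 CPM), Epor (6.33 CPM), Mmp13 (137 CPM), Retnlg (89.4 CPM) and Tmem119 (87.5 CPM), and lowest for Nfkb1 (153 CPM). In replicate 2 they were highest for Saa3 (56.9 CPM), Steap3 (24.9 CPM), Ifi27l2a (289 CPM), Spp1 (1461 CPM) and Tgfb2 (2.46 CPM), and lowest for Stat6 (177 CPM). CD11chi RAS 1 was also the CD11chi library closest to the Sham mean of its population, with a correlation of 0.966 where the other 3 had 0.91 to 0.932. For a change of the contrast between RAS and Sham, 0 of 14137 genes passed edgeR's interaction test over all 14 libraries. Without KRM RAS 1, 970 genes passed in the positive and 120 in the negative direction. Without CD11chi Sham 3 as well the counts were 344 and 76. Leaving out any other single library gave at most 35 and 23.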

How the results depend on the processing

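Left out one at a time, the 7 libraries gave 0 to 1780 genes higher in KRM and 14 to 1003 lower, against 537 and 633 with all. Scaling by median of ratios gave 538 and 606, and by total library size 546 and 434, which moved the median log2 fold change of all genes from 0.032 to 0.265, so that scale shifts all genes up. Without a filter the counts were 718 and 652, with at least 10 counts in every library 386 and 517, with DESeq2 1611 and 1075, with limma 301 and 302, over all 6 groups 528 and 1041, with lines kept apart 533 and 629, and with the close pairs summed 0 and 0. Without KRM RAS 1 the counts of 1780 and 900 became 1842 and 898 without a filter, 2148 and 1291 with DESeq2, 1181 and 1008 with limma, and 469 and 57 with the close pairs summed, where the lone KRM library is assumed to vary like the other group. The limma values mix in the unmatched content of the log2 column of KRM RAS 1.

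The interaction gave 0 and 0 genes in the main fit, with median of ratios, and with at least 10 counts in every library, 15 and 1 over all 6 groups, 1094 and 143 with DESeq2, and 0 to 970 and 0 to 120 when single libraries were left out. Without both KRM RAS 1 and CD11chi Sham 3 it gave 344 and 76. Deviations from the group means of libraries with the same number correlated at 0.391, 0.094 and 0.264 for numbers 1, 2 and 3, so the numbers do not pair the samples, and KRM RAS 2 correlated best with CD11chi RAS 3. A fit with a block for the replicate number gave 12 genes higher and 63 lower, and 0 and 0 in the interaction.

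Of 169 named genes, 159 kept their direction in each of the 17 alternatives that gave them a value (120 genes had one with at least 10 counts in every library, 159 with limma and 165 to 169 in the others), and the 10 that did not were uncalled. With limma the log2 fold changes were 0.19 for Ifi27l2a, -0.62 for Cd4, -0.45 for Klrb1c, 0.47 for Ccl2, -0.020 for Tlr4, 0.54 for Tnf and 0.46 for Vegfa. With total library size they were 0.036 for Ccl2, 0.25 for Tnf and 0.065 for Vegfa, with the block 0.057 for Tnf and 0.033 for Vegfa, and with at least 10 counts in every library 0.053 for Tnf. When single libraries were left out they ran from -0.72 to 2.56 for Klrb1c, from -2.60 to 1.01 for Ly6c2, from -0.28 to 0.53 for Spn, from -0.58 to 0.21 for Ccl2, from -0.79 to 0.066 for Mx1, from -0.29 to 0.25 for Tnf and from -0.59 to 0.20 for Vegfa. The causes were not tested. With 3 and 4 libraries, of which 2 pairs are close, the number of libraries limits what can be detected.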

Other observations

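In CD11clo Mϕ, the third population of the stenotic kidney, the summed level of neutrophil markers was 2255 to 4636 CPM, against 72.4 to 131 CPM in KRM and 49.1 to 391 CPM in CD11chi Mϕ. The dendritic cell sum there was 385 to 1341 CPM, below the 2309 to 9354 CPM of CD11chi Mϕ, and the resident macrophage sum was 1804 to 6535 CPM, against 5250 to 8143 CPM in KRM. The T and NK cell sum of all 4 CD11chi RAS libraries (156 to 405 CPM) lay above all Sham CD11chi libraries (at most 58.2 CPM), and that of KRM RAS 1 (572 CPM) lay above all Sham KRM libraries (at most 113 CPM).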
